A study of Mus musculus with 12 samples.

Results

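The mouse genome annotation used here holds many genes under a catalogue name, such as a number after Gm or a clone name ending in Rik. Of 11027 genes with such a name among the 32285 genes in the matrices, 193 reached a mean of at least 50 CPM (the UMIs of a gene scaled to a common total of all UMIs in a sample) in hepatocyte nuclei of at least 1 of 3 sample types. The genes were thus selected on their measured CPM. Genes with certain Gm numbers, fixed by the rule, were left out by symbol alone, and no repeat annotation was used. The annotation calls 137 of them noncoding, among them 80 lincRNAs and 31 antisense genes, and 56 protein-coding. RefSeq lists 10 of them under another symbol, such as Aopep for 2010111I01Rik and Garre1 for 4931406P16Rik. For some members it gives another class, such as pseudogene for Gm3839, counted here as protein-coding, and protein-coding for the lincRNA Gm39469. Just inside the limit lay Gm30835 with a highest mean of 50.8 CPM and 4732419C18Rik with 50.6 CPM, and just outside it lay 2310015A10Rik with 49.9 CPM and Gm46430 with 49.8 CPM.

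Long noncoding RNAs are transcripts without a known protein product. Many stay in the nucleus, some regulate transcription near the site where they are made, and many others are byproducts of active promoters and enhancers without a known function. They tend to be more restricted to a cell type than protein-coding genes, and nuclear RNA, which is rich in unspliced transcripts, shows them better than RNA of whole cells. For genes annotated as protein-coding, an open reading frame was predicted or is known.

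The samples came from 8 chow-fed wild-type male mice, 10 to 12 weeks old, which the study's methods call C57BL/6NTac and the sample labels C57BL6J. From each mouse, Liver was a lobe cut off after calcium-free perfusion and before collagenase, Cell Suspension (CS) was the cells released by collagenase, and Primary Hepatocytes (PH) had been cultured for 24 hours on collagen in medium with dexamethasone and insulin. The 24 hashtagged samples were run in 6 pools of 4 samples each, with 42467 hepatocyte nuclei of 53467 annotated nuclei. Hepatocyte nuclei per sample numbered 811 to 2559 in Liver, 675 to 2585 in CS and 1631 to 2151 in PH, and their UMIs 6860168 to 29018248, 2065229 to 17389720 and 9596129 to 20300379. Pools 1 and 6 held no PH sample and pools 3 and 4 no Liver sample, so that pool and sample type were partly confounded. Between them the pools shared 337 barcodes. All 10 hepatocyte markers were detected in each sample type, with a median summed level of 13790 CPM in Liver, 17471 CPM in CS and 4487 CPM in PH. A level summed over nuclei does not separate fewer nuclei with a gene's RNA from less RNA per nucleus, and this was not tested.

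The promoter sequences of 6 genes that recur in the results follow, each 300 bases from 250 before to 50 after the RefSeq start on the GRCm38.p6 assembly, read in the direction of transcription. They are shown because these genes had large falls or rises in culture, zonation or differences between mice. Capitals mark matches, on either strand, to short words of factors known from liver and growth control, which are C/EBP, HNF1, TEAD and the TATA box.
9030616G12Rik (ENSMUSG00000097691), chr10:128970947-128971246, plus strand, lowest in PH relative to Liver: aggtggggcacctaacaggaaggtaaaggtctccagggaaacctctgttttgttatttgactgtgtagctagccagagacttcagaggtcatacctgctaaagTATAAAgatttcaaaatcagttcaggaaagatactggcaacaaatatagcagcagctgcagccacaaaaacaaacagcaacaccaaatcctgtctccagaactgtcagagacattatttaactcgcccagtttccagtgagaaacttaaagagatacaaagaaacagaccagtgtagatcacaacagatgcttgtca
9030622O22Rik (ENSMUSG00000086141), chr2:148040299-148040598, minus strand, the most abundant in Liver outside the ribosomal RNA locus: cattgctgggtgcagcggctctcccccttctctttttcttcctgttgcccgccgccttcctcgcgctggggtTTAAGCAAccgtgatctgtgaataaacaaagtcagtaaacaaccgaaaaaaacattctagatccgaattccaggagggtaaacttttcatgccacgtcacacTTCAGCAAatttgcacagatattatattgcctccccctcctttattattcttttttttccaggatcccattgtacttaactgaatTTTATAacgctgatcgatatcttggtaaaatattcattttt
Gm20319 (ENSMUSG00000092545), chr16:26755453-26755752, minus strand, antisense to Il1rap: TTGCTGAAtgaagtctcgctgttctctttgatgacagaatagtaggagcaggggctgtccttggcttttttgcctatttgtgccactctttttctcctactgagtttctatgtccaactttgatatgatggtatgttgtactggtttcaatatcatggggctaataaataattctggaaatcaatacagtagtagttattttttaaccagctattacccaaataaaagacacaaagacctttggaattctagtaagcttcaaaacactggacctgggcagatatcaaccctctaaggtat
Gm36041 (ENSMUSG00000112774), chr10:122386645-122386944, plus strand, zonated and variable between mice: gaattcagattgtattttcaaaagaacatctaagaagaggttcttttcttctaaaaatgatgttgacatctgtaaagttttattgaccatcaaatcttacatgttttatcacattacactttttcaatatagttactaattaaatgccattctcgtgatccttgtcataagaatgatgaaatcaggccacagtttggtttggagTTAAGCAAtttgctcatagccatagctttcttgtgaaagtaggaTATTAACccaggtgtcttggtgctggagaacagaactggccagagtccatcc
Gm20559 (ENSMUSG00000106734), chr6:3346089-3346388, minus strand, higher in PH: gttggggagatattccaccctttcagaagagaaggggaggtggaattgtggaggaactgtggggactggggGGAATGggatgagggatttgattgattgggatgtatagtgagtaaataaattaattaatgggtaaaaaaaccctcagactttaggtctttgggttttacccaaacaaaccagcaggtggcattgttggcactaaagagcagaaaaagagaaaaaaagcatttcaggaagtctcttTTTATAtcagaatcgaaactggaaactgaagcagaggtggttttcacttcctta
1700128A07Rik (ENSMUSG00000099794), chr14:106486471-106486770, minus strand, higher in PH and with none of these words: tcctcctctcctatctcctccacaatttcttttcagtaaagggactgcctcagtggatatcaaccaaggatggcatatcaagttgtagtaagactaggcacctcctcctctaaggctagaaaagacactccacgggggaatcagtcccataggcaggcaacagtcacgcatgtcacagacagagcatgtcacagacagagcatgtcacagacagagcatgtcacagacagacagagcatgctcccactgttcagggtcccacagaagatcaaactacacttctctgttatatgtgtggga
The RefSeq start lay 145 bases from the GENCODE start for 9030622O22Rik and within 10 bases of it for the other 5. Over the 112 members with a RefSeq promoter, the TEAD word GGAATG occurred in 16.1% against 14.6% of all 27025 promoters, in 9 of 34 members that were higher in PH than Liver and in 7 of 61 that were lower. The HNF1 word GTTAATN occurred in 4.46% of members against 7.18% of all promoters, in 0 of the 34 higher and 5 of the 61 lower members. The C/EBP word TTGCNNAA was in 14.3% of members and 10.8% of all promoters, in 5 of the 34 higher and 10 of the 61 lower members. The TATA word TATAAA was in 9.82% and 14.2%, in 5 higher and 6 lower members. Further words searched were AP-1 (TGANTCA, 10.7% and 7.93%), HNF4A (CAAAGTCCA, 1.79% and 0.477%) and the E-box (CACGTG, 14.3% and 7.24%). Among the higher and the lower members, AP-1 occurred in 3 and 9, HNF4A in 0 and 2 and the E-box in 5 and 8. These matches are a description of letters in a window and were not tested.

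Together the 193 genes took 4.25% ± 0.427 (SD, n = 8) of hepatocyte UMIs in Liver, 4.88% ± 1.05 in CS and 4.92% ± 0.417 in PH. A large part came from Gm42418 and Gm26917, which lie at a ribosomal RNA locus on chromosome 17 (39846958 to 39848788 and 39843013 to 39846341, plus strand, GRCm38) and whose reads can come from ribosomal RNA copies. RefSeq lists Gm42418 as the pseudogene Rn18s-rs5. Without these 2, the share was 2.33% ± 0.178 in Liver, 1.89% ± 0.0824 in CS and 1.92% ± 0.114 in PH. The highest mean was in Liver for 87 genes, in PH for 87 and in CS for 19. The limit was passed in PH alone by 57, in all 3 types by 50, in Liver and CS by 40, in Liver alone by 32, in Liver and PH by 10, in CS and PH by 2 and in CS alone by 2. Per kilobase of gene span, high Liver means outside the ribosomal locus included 121 CPM for AC157910.3 and 46.4 CPM for Gm12840.

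**Figure D1:**
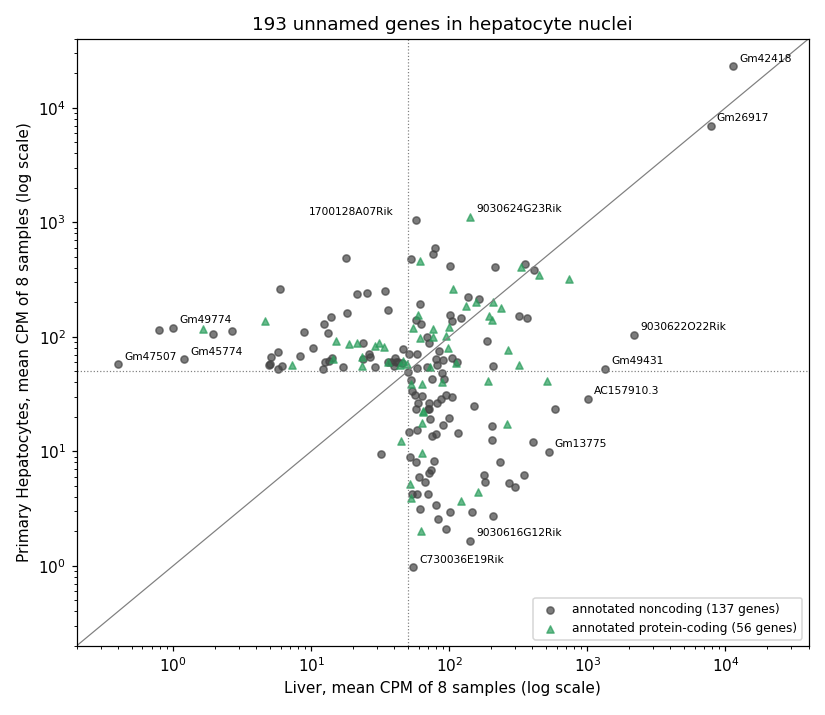
Mean CPM of the 193 genes in hepatocyte nuclei of Liver (x axis, log scale) and PH (y axis, log scale), 8 samples each, with noncoding genes as circles and protein-coding genes as triangles. The dotted lines mark the limit of 50 CPM that chose the genes, so the lower left corner holds no gene apart from those that passed in CS, and 9030622O22Rik and Gm49431 lie far below the diagonal while 1700128A07Rik and 9030624G23Rik lie above it.

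PH was compared with Liver to see which of these genes differed after isolation and culture. Counts per sample were fitted with edgeR over all 26521 genes tested, and a gene is called here when its adjusted p was below 0.05. The log2 changes use TMM factors, a scaling per sample, while the CPM printed beside them do not, so they can differ. Of the 193 genes 166 were called, 61 higher and 105 lower in PH, where 54.1% of all genes tested were called (27.4% higher, 26.7% lower). Among the other 4755 genes of at least 50 CPM in 1 type, 78% were called. Many genes passed the limit through 1 type in which they were high, so these counts describe the choice of genes as well as the cells. The median log2 change was -0.71 over the 193 genes, -0.23 over the other genes of at least 50 CPM and 0.04 over all genes tested. The split depended on scaling. With library totals in place of TMM factors, 86 were higher and 91 lower, and the median of all genes tested moved to 0.57. Among the 50 genes at or above the limit in all 3 types, 38 were called, 12 higher and 26 lower, with a median of -0.26. Of the noncoding members 118 of 137 were called and of the protein-coding members 48 of 56. In 138 of the 193 the values of the groups did not overlap. This held for 35.5% of all genes tested and for 3123 of the other 4755 genes of at least 50 CPM.

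The largest rises were in genes that were nearly silent in Liver, and since these genes passed the limit through PH alone, their values are given without a test. AC122252.2, a lincRNA on chromosome 17 that starts 2390 bases from Dusp1, a phosphatase gene of the early stress response, had 0.293 to 1.31 CPM in Liver (median 0.698), 0.968 to 7.71 CPM in CS (median 2.18) and 64.0 to 184 CPM in PH (median 111). Its log2 change was 6.64 ± 0.37 (standard error). All PH samples lay above all others. Gm47507, 16715 bases from Klf6, a zinc finger transcription factor that responds to injury, went from a median of 0.359 CPM in Liver and 1.18 in CS to 57.4 in PH (40.1 to 74.7; log2 6.55 ± 0.29). Klf6 itself went from 5.52 ± 2.99 CPM in Liver to 588 ± 44.7 in PH (SD, n = 8). Gm49774 starts 21 bases from Hmga1 on the other strand, and Hmga1 encodes a chromatin protein of growing cells. It had a median of 0.992 CPM in Liver, 2.85 in CS and 130 in PH (60.1 to 196; log2 6.39 ± 0.33), and the log2 change of Hmga1 was 3.04. Gm4131 overlaps Fam124a on the other strand and had medians of 1.39, 3.26 and 96.4 CPM. Gm36283, 3011 bases from Pawr, a gene of cell death control, had medians of 1.95, 3.83 and 112 CPM.

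Gm45774 differed from these genes in its timing. It is antisense to Mt2, one of the metallothionein genes that bind zinc and copper and respond to stress and glucocorticoids. In Liver it ranged from 0.0494 to 5.25 CPM (median 0.320), in CS from 6.29 to 84.9 CPM (median 29.2) and in PH from 49.7 to 84.1 CPM (median 61.9). All CS samples were above all Liver samples, and CS and PH overlapped. The log2 change was 5.53 ± 0.56 from Liver to CS and -0.08 ± 0.43 from CS to PH. These changes use TMM factors and the CPM do not. With library totals the median PH over CS change of all genes tested moved from 0.01 to 0.69. How far Gm45774 changed from CS to PH thus depends on scaling. Mt2 changed by 4.50 and Mt1 by 4.61 from Liver to CS on the log2 scale. The strand setting of the authors' counting is not given in the sources used here, so that reads of Gm45774 and Mt2 may not be separable.

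Higher levels in PH also occurred in genes whose mean was at or above the limit in all 3 types. The lincRNA 1700128A07Rik had 31.8 to 85.9 CPM in Liver (median 57.9), 49.2 to 153 in CS (median 93.7) and 771 to 1214 in PH (median 1072), with a log2 change of 3.65 ± 0.24 from Liver to PH (edgeR adjusted p = 7.2e-14). The predicted protein-coding gene 9030624G23Rik had medians of 130, 266 and 1158 CPM (log2 2.45 ± 0.19, edgeR adjusted p = 2.8e-12), but from spliced UMIs alone the log2 change was 0.08 and was no longer called. Its UMIs in Liver were 99.7% unspliced, so the spliced value rests on few of them. The lincRNA Gm48228 had medians of 77.0, 111 and 559 CPM (log2 2.40 ± 0.18, edgeR adjusted p = 7.6e-13). Gm20186, which starts 372 bases from Lsm8, a gene of RNA splicing, had medians of 71.9, 66.6 and 528 CPM (log2 2.26 ± 0.19, edgeR adjusted p = 1.3e-11). In each of the 4 genes all PH samples lay above all Liver and CS samples.

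The largest falls were in genes at or above the limit in Liver, most of which had lost part of their level in CS already. The lincRNA 9030616G12Rik, whose promoter with a TATA word is shown above, had 55.5 to 235 CPM in Liver (median 134), 15.6 to 57.6 in CS (median 28.5) and 0.840 to 2.51 in PH (median 1.83), a log2 change of -6.95 ± 0.31 from Liver to PH. Mettl7b, a methyltransferase gene 10209 bases away, changed by -4.58. Gm20319 is antisense to Il1rap, which encodes the accessory chain of the interleukin-1 receptor. It had 264 to 321 CPM in Liver, 106 to 164 in CS and 2.12 to 10.4 in PH, with no overlap between any of the 3 types (log2 -6.51 ± 0.25), while Il1rap changed by -4.32. AC151289.1 went from a median of 203 CPM in Liver through 51.5 in CS to 2.66 in PH (log2 -6.79 ± 0.27), and Gm48633, 27587 bases from Apob, from 262 through 124 to 4.63 (log2 -6.26 ± 0.33). Apob, the structural protein gene of very low density lipoprotein, changed by -1.91.

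C730036E19Rik did not fall on isolation. Its medians were 52.1 CPM in Liver, 48.6 in CS and 0.957 in PH (log2 -6.41 ± 0.23 from Liver and -6.55 ± 0.24 from CS). The most abundant member outside the ribosomal RNA locus, 9030622O22Rik, lies 2674 bases from Foxa2, a pioneer transcription factor of liver and gut, on the same strand. It had 1432 to 3508 CPM in Liver (median 1702), 803 to 2243 in CS (median 1081) and 76.6 to 133 in PH (median 99.7), a log2 change of -4.97 ± 0.28 (edgeR adjusted p = 1.2e-15). Foxa2 itself had a log2 change of -0.91 from Liver to PH. The lincRNA Gm34667 had medians of 603 CPM in Liver, 515 in CS and 23.6 in PH (log2 -5.17 ± 0.27). Gm49431, which starts 146 bases from the cytochrome gene Cyp2d34, had medians of 1353, 1286 and 45.6 CPM (log2 -5.22 ± 0.30).

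Gm13775 and Gm13773 lie in the Mup cluster of urinary protein genes, 854 bases from Mup19 and 881 bases from Mup1, and had medians of 519 and 349 CPM in Liver against 8.95 and 5.20 in PH. The Mup genes are nearly identical copies, so that reads of these genes are uncertain. 5830473C10Rik, which RefSeq names Albfm1, a member of the albumin family, went from a median of 76.4 CPM in CS to 1.81 in PH, and the lincRNA 4930404H11Rik from 99.2 to 2.69.

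**Figure D2:**
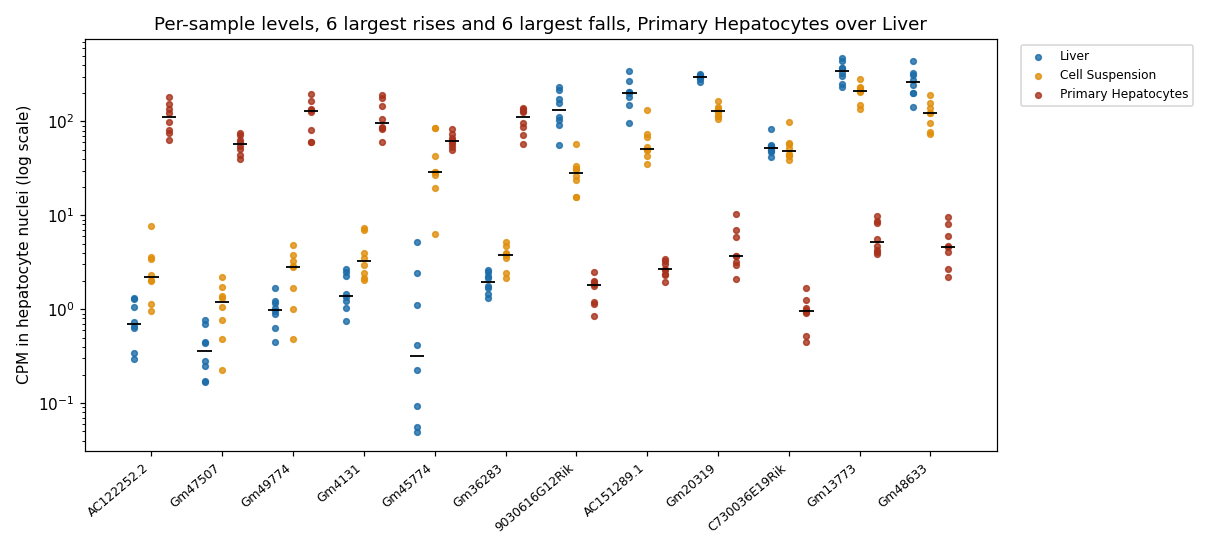
CPM in hepatocyte nuclei (log scale) of the 6 members with the largest rises and the 6 with the largest falls from Liver to PH, 8 samples of each type as points and the median as a bar. The 6 on the left rose to medians of 57.4 to 130 CPM in PH, Gm45774 had most of its change between Liver and CS, and the 6 on the right fell to medians of 0.957 to 5.20 CPM.

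PH was compared with CS to set culture apart from isolation. Of the 193 genes 168 were called, 69 higher and 99 lower, where 51.6% of all genes tested (27.6% higher, 24% lower) and 78.8% of the other genes of at least 50 CPM were called. With library totals 94 were higher and 84 lower, and the median of all genes moved from 0.01 to 0.69. Gm20559, a processed transcript 26129 bases from Samd9l, a gene induced by interferons, had 0.968 to 5.87 CPM in CS and 67.1 to 167 in PH (log2 4.11 ± 0.26). Samd9l had 10.9 CPM in CS and 126 in PH. This comparison shares the PH samples with that of PH and Liver.

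CS was compared with Liver to see what isolation alone moved. Of the 193 genes 90 were called, 29 higher and 61 lower, where 21.5% of all genes tested (7.69% higher, 13.8% lower) and 28.1% of the other genes of at least 50 CPM were called. Of the noncoding members 70 of 137 were called and of the protein-coding 20 of 56. The values did not overlap in 48 of the 193, against 7.69% of all genes tested and 617 of the other 4755 genes of at least 50 CPM. The call count fell to 46 in pools 2 and 5, which hold all 3 types, with fewer samples. The share of all genes called in these pools is not given. With library totals 27 were higher and 76 lower, at a median of all genes of -0.14. Apart from Gm45774, only 4 members rose without overlap. The predicted coding gene 2900026A02Rik rose from 225 to 584 CPM in Liver (median 500) to 718 to 1615 in CS (median 932; log2 1.31 ± 0.17, edgeR adjusted p = 1.2e-06), and fell to a median of 351 in PH. The lincRNA Gm48099 had 133 to 544 CPM in Liver (median 380), 352 to 1292 in CS (median 846) and 250 to 747 in PH (median 357). The Liver and CS values overlapped, with a log2 change of 1.39 ± 0.27 (edgeR adjusted p = 2.7e-04), while PH and Liver differed by -0.24 ± 0.27 (edgeR adjusted p = 0.47). E330011O21Rik, antisense to the virus receptor gene Cxadr, rose by 1.27 ± 0.20 on the log2 scale (median 15.1 to 27.3 CPM), F830016B08Rik by 1.08 ± 0.15 (88.1 to 168 CPM) and 1700030N03Rik also rose (21.2 to 35.7 CPM). From spliced UMIs alone 2900026A02Rik and 1700030N03Rik had changes of -0.11 and -0.48. In Liver they were 86.2% and 99.8% unspliced, so few spliced UMIs of 1700030N03Rik remained.

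The falls from Liver to CS were larger in number. The lincRNA 5031425E22Rik starts 172 bases from Kmt2e, a chromatin regulator gene, on the other strand. It had 171 to 280 CPM in Liver (median 211), 31.2 to 78.4 in CS (median 57.6) and 266 to 597 in PH (median 378), so that it fell on isolation by 1.77 on the log2 scale (edgeR adjusted p = 1.2e-08) and was higher again in culture. Kmt2e changed by -0.03 from Liver to CS. 2310001H17Rik (median 149 to 34.6 CPM, log2 -1.81), Gm32063 (109 to 26.5, log2 -1.74) and Gm49417 (91.3 to 26.6, log2 -1.68) fell without overlap and went lower still in PH. Gm39469 (58.8 to 16.8 CPM, log2 -1.60) was at a median of 31.3 in PH. 0610031O16Rik fell by 1.60 (48.3 to 16.2 CPM), but had a change of 0.14 from unspliced UMIs alone.

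Overlapping and neighbouring genes are given beside the members as a description, without the same counts over all gene pairs. Of 111 pairs of a member and a gene that overlaps it on the opposite strand, both were called between Liver and PH in 74, in the same direction in 60 and in the opposite direction in 14. For 27 pairs that overlap on the same strand the counts were 14, 11 and 3. For 34 pairs with divergent starts less than 1000 bases apart the counts were 22, 20 and 2, and for 189 pairs with the nearest protein-coding gene 123, 89 and 34. Where reads cannot be assigned to a strand, pairs that overlap can share them, and 87 members overlap a gene on the opposite strand and 24 on the same strand. Among the 95 members that overlap no gene, 23 were higher and 58 lower in PH than in Liver, and among the 98 that do, 38 were higher and 47 lower. Of the other 4755 genes of at least 50 CPM, 1452 were higher and 2258 lower, and as above the split depends on scaling.

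Zonation was not used to choose the genes and could be tested. Hepatocytes near the central vein and near the portal tract of a lobule divide metabolic work between them. In each sample, hepatocyte nuclei were ranked by the UMI share of 10 pericentral minus 10 periportal marker genes, and the nuclei of the top and bottom of the ranking, 1 in 3 on each side, were summed and compared with the sample as a block. In Liver 109 of 193 members were called, 53 central and 56 portal, where 20.6% of all genes tested (10.9% central, 9.75% portal) and 44.3% of the other genes of at least 50 CPM were called. Most differences were small, and 8 central and 11 portal members reached a log2 difference of at least 1. In CS 68 were called, 33 central and 35 portal (14% of all genes tested, 7.88% central and 6.16% portal), where 28.8% of the other genes of at least 50 CPM were called. All 61 members called in both had the same direction, which makes 56.0% of the Liver calls and 89.7% of the CS calls. The same counts were not taken over all genes, so they are a description and not a trait of the members. The samples of both types came from the same 8 mice. With nuclei thinned to 1000 UMIs the Liver count was 64, and the share of all genes called at that depth is not given.

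On the central side, AC127342.1 had 12.7 to 209 CPM in Liver against 0.848 to 15.2 on the portal side (log2 4.21 ± 0.14, edgeR adjusted p = 2.2e-19) and a log2 difference of 3.15 ± 0.18 in CS. AC151289.1 had 193 to 672 against 19.4 to 86.8 CPM (log2 3.23 ± 0.10 in Liver and 3.29 ± 0.14 in CS). It is also among the genes that fell most in culture. Gm13775 in the Mup cluster had 646 to 1544 against 124 to 229 CPM (log2 2.62 ± 0.06), and its neighbour Mup19 a log2 difference of 6.95. Gm36041, whose promoter is shown above, had a difference of 2.31 ± 0.10, and Avpr1a, a vasopressin receptor gene 13466 bases away, of 2.78. Gm44507 (1.96 ± 0.18) and 9130230L23Rik (1.32 ± 0.12) followed. Gm44507 was higher on the central side in 7 of 8 CS samples, all others named here in 8 of 8 samples of both types.

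On the portal side, Gm15883 had 97.6 to 181 CPM in Liver against 2.53 to 9.34 on the central side (log2 -4.55 ± 0.12, edgeR adjusted p = 2.9e-21). It is antisense to Cyp2f2, which is 1 of the 10 periportal markers, so that its place follows in part from the ranking. The lincRNA Gm35696 had no such overlap and had 25.9 to 378 against 0.576 to 24.7 CPM (log2 -4.12 ± 0.17, edgeR adjusted p = 4.4e-17; -3.64 ± 0.13 in CS). Gm3839, annotated as protein-coding but listed by RefSeq as a pseudogene, had a difference of -2.44 ± 0.09. The difference was -2.19 ± 0.09 for Gm32461, -1.42 ± 0.11 for Gm19619 and -1.32 ± 0.11 for Gm31583. All of these were lower on the central side in 8 of 8 Liver samples. Within PH zonation was not analysed here.

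**Figure D3:**
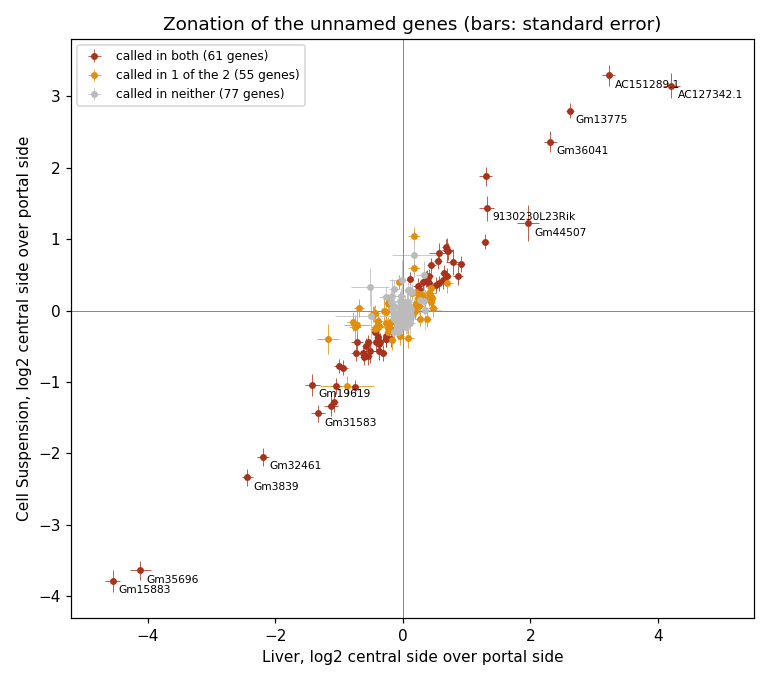
Log2 difference of central-side over portal-side hepatocyte nuclei for the 193 members in Liver (x axis) and CS (y axis), with standard errors as bars. The 61 members called in both lie in the upper right and lower left, from AC127342.1 and AC151289.1 to Gm15883 and Gm35696.

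Differences between mice were not used by the rule either, which took group means. Across the 8 mice, the level in Liver and the level in CS were correlated on the log2(CPM + 1) scale, with an exact permutation test. After adjustment over all 4948 genes of at least 50 CPM, 76 of 193 members passed, against 36.2% of those genes and 36% of those that are not members, with r from 0.767 to 0.993 in those without separate clusters of mice. Without the 2 mice farthest from the Liver median r stayed above 0 in 75 of the 76. The 76 were chosen for a high r, and with all 8 mice r was above 0 in 182 of the 193, so this count is a description. With all 8 mice the median r was 0.708 over the members and 0.682 over the other genes of at least 50 CPM. Mice 6 and 7 each had their Liver and CS samples in the same pool, and without them 9 members passed, against 2.91% of the genes. With 6 mice few genes can pass this adjustment, and 73 members were past the unadjusted threshold without these mice, against 94 with all 8. With all 8 mice 47.5% of the other 4755 genes of at least 50 CPM were past it too. Without mice 6 and 7 that share was not taken. The part of the pool in these relations was not tested.

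Gm36264, a lincRNA on chromosome 13, had 234 to 838 CPM in Liver and 136 to 433 in CS, with mouse 5 highest and mouse 2 lowest in both (Pearson's r = 0.993 and Spearman's rho = 1, exact permutation p = 2.5e-05 and 5.0e-05, adjusted p = 0.0036 for r, r = 0.959 without mice 5 and 6). In PH it was at 7.93 to 20.6 CPM, and the sample numbered 5 was among the lowest there. The numbering of the PH samples could not be checked, so this sample may not come from mouse 5. Gm12718 on chromosome 4 ranged from 33.0 CPM in mouse 3 to 435 in mouse 4 in Liver and from 26.5 to 235 CPM in CS in the same mice (r = 0.992, rho = 0.976, exact permutation p = 7.4e-05 and 4.0e-04, adjusted p = 0.0044 for r, r = 0.958 without mice 3 and 2). Gm31814 spanned a narrower range, 46.7 to 100 CPM in Liver and 36.5 to 87.1 in CS (r = 0.984, rho = 1, exact permutation p = 2.5e-05 and 5.0e-05, adjusted p = 0.0036 for r, r = 0.973 without mice 6 and 4).

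In Gm31508 and Gm31333 the mice fell into separate groups of 4, with a gap of over 0.4 of the range of values, and no correlation is given, since each group is small. Gm31508 had 539, 666, 380 and 569 CPM in Liver of mice 1, 3, 5 and 7 and 104, 127, 70.2 and 107 CPM in mice 2, 4, 6 and 8. In CS the same mice had 277 to 578 and 45.2 to 70.3 CPM. In PH the samples with the same numbers overlapped (108 to 203 and 77.5 to 214 CPM), but their numbering could not be checked. Gm31333 lies next to it on chromosome 12 (29139167 to 29199768, against 28910229 to 29041874 for Gm31508, both on the plus strand) and showed the same order, with 118 to 175 against 32.6 to 52.6 CPM in Liver. Gm36041 on chromosome 10, with a smaller gap of 0.36 of its range in Liver, had 89.9 to 153 CPM against 13.7 to 38.1 CPM in the same mice. Of the Liver samples, pool 6 held mice 1, 2 and 6 and pool 1 held mice 3, 7 and 8, and the part of the pool in this split was not tested. The labels give no property of the mice that would set these groups apart.

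**Figure D4:**
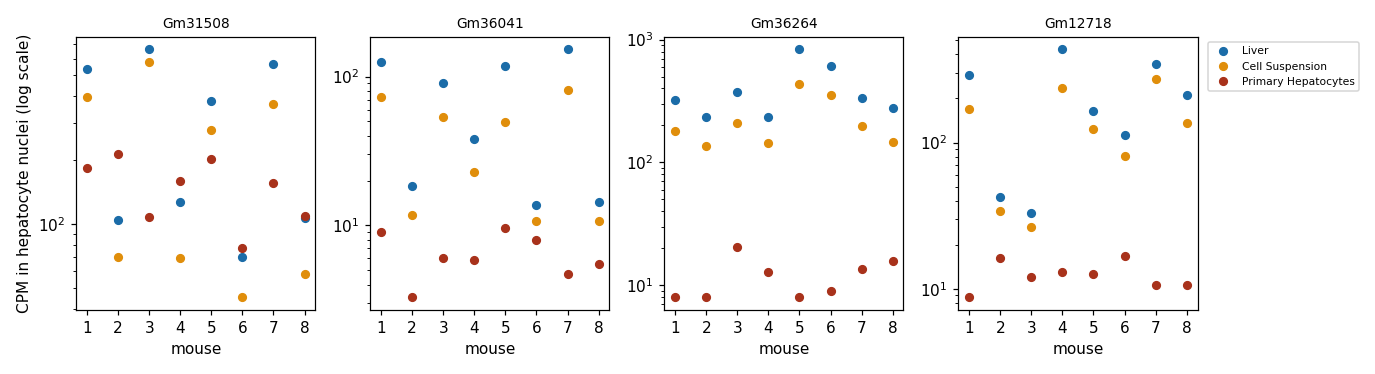
CPM in hepatocyte nuclei (log scale) of Gm31508, Gm36041, Gm36264 and Gm12718 by mouse number, with Liver, CS and PH as colours. Liver and CS points of a mouse lie close in order, and mice 1, 3, 5 and 7 lie above the others for Gm31508 and Gm36041 in both. The PH points do not keep the order, but the numbering of the PH samples could not be checked.

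The rule used the sum of unspliced and spliced UMIs and not their ratio, but the ratio is not independent of it where a member passed the limit through a rise of 1 of these forms, so that the counts of members are descriptions. The median member was 94.3% unspliced in Liver, 91.6% in CS and 91.5% in PH, each gene counting once. Summed over UMIs, the members were 45.2%, 32.3% and 29.2% unspliced, and without Gm42418 and Gm26917 83.8%, 83.0% and 77.9%, where all genes were at 80.5%, 73.0% and 71.4%. The summed share thus lay below that of all genes with these 2 genes and above it without them. The share of all genes kept these 2 genes in each case, so the sets compared without them are unlike. Members at 0% in Liver included Gm42418, Gm26917 and AC160336.1, and members at 100% included Gm33838, Gm48228 and Gm26754. Exons cover the whole span of Gm42418, Gm26917 and AC160336.1 (1831, 3329 and 93147 bases), and a gene without an intron has no unspliced form. Their 0% thus follows from the annotation. This does not hold for every member at 0%, since exons cover 1837 of 2579 bases of AC121973.1, which was at 0% too. Exons cover 786 of 5878 bases of Gm33838, 404 of 119463 of Gm48228 and 504 of 207008 of Gm26754. By exact permutation tests adjusted over all genes with enough UMIs, the share differed between PH and Liver in 94 of 179 members (23 higher, 71 lower), where 65.4% of all such genes were called (5.1% higher, 60.3% lower). Between PH and CS it differed in 51 of 163, 23 higher and 28 lower (29.9% of all genes, 15.7% higher and 14.1% lower), and between CS and Liver in 70 of 168, 10 higher and 60 lower in CS (67.9% of all genes, 2.11% higher and 65.8% lower).

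The antisense gene 4833422C13Rik had an unspliced share of 97.0% ± 1.12 in PH (SD, n = 8), 70.1% ± 9.59 in CS and 76.8% ± 7.13 in Liver, with no overlap of PH and the other types. Its median level was 24.8 CPM in Liver and 234 in PH, the type through which it passed the limit, so no test is given. Gm15638, antisense to Phldb2 and Plcxd2, had 83.6% ± 3.96 in PH against 60.4% ± 13.5 in CS and 61.6% ± 6.32 in Liver. Its median level was 53.1 CPM in Liver, 29.7 in CS and 76.4 in PH. Gm16559, antisense to the alcohol dehydrogenase gene Adh1, had 36.3% ± 9.94 in PH, 8.71% ± 3.23 in CS and 17.3% ± 2.39 in Liver, so that CS was below and PH above Liver, but rested on as few as 25 UMIs in a PH sample. The coding gene 2810459M11Rik had 46.5% ± 9.73 in PH, 19.1% ± 5.18 in CS and 38.8% ± 5.23 in Liver, where PH and Liver overlapped.

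**Figure D5:**
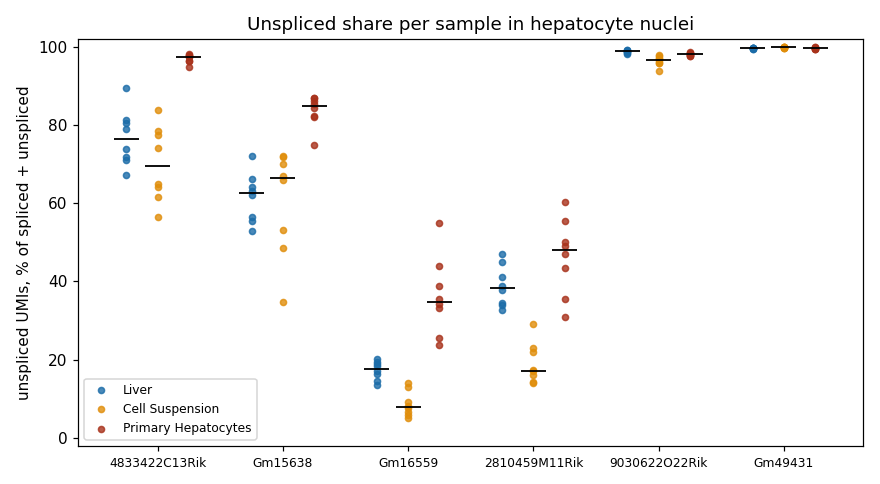
Unspliced UMIs as a percent of spliced plus unspliced UMIs in hepatocyte nuclei of each sample, with the median as a bar, for the 4 members with the largest changes and for 9030622O22Rik and Gm49431. The first 4 genes lie higher in PH than in CS in every sample, and the last 2 stay above 93% in all samples.

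Endothelial nuclei, which line the liver sinusoids and some of which persist in the culture, were not used by the rule. Between PH and Liver, 113 of 193 members were called there, 60 higher and 53 lower, where 33.8% of all genes tested were called (15.4% higher, 18.4% lower). Fewer members were called with a filter that tested fewer genes, as given in the last section. Among the 85 members of at least 50 CPM in endothelial nuclei 54 were called, against 59.3% of the 4604 other genes at that level. Of the 113, 47 were called higher and 48 lower in hepatocyte nuclei as well, 13 were called in endothelial nuclei alone, and 5 had opposite directions. In hepatocyte nuclei 166 of the 193 were called, and the overlap was not counted over all genes, so it is a description. Endothelial nuclei numbered 29 to 510 per PH sample and 161 to 560 per Liver sample. Hepatocyte RNA was present in them, with 10 hepatocyte markers summing to a median of 3059 CPM in Liver, 3857 in CS and 3321 in PH, beside 13790, 17471 and 4487 CPM in hepatocyte nuclei. The level in endothelial nuclei was thus closer to that in hepatocyte nuclei in PH than in Liver. The 10 endothelial markers summed to a median of 13634 CPM in endothelial nuclei of Liver and 7034 CPM in PH. The part of hepatocyte RNA in the shared directions was not tested. The 1700128A07Rik level went from 20.7 to 346 CPM (means; log2 3.90) and that of 9030624G23Rik from 59.8 to 496 CPM (log2 2.95). The 5 with opposite directions were AC132320.1, F830016B08Rik, 2210408F21Rik, 4932438A13Rik and B230206L02Rik, all higher in PH in endothelial and lower in hepatocyte nuclei. Mean hepatocyte CPM in Liver and PH were 411 ± 43.3 and 379 ± 62.8 for 2210408F21Rik (SD, n = 8). They were 208 ± 23.8 and 200 ± 16.5 for 4932438A13Rik, and 58.1 ± 4.28 and 52.9 ± 7.46 for B230206L02Rik. The fitted changes include TMM factors and these CPM do not, so how far these genes fell in hepatocyte nuclei depends on scaling. AC132320.1, which overlaps F830016B08Rik on the other strand, went from 134 ± 27.1 to 299 ± 74.2 CPM in endothelial nuclei (SD, n = 8; log2 1.00) and from a median of 350 to 148 CPM in hepatocyte nuclei (log2 -1.86). F830016B08Rik went from 33.5 to 83.8 CPM (log2 1.18) against -1.69 in hepatocytes, and these 2 overlapping genes may share reads. Gm4951 of the same region had 389 CPM in Liver and 473 in PH endothelial nuclei (log2 0.12, edgeR adjusted p = 0.49).

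Several members had a higher CPM in other Liver cell types than in hepatocytes. The level was highest in hepatocytes for 100 members, in leukocytes for 30, biliary cells for 29, Kupffer cells (the resident macrophages) for 15, endothelial cells for 12 and stellate cells for 7, with 38 members at least 1 log2 unit above hepatocytes. These comparisons are descriptions, and leukocytes (365 nuclei) and biliary cells (220 nuclei) were few. CPM is a share of the UMIs of a cell type and not an amount per nucleus. Hepatocytes had 140625042 UMIs in 15000 nuclei, leukocytes 1017463 in 365 and biliary cells 701761 in 220. Gm36283, which was nearly silent in Liver hepatocytes at a mean of 1.96 CPM and higher in PH, had 139 ± 123 CPM in biliary cells (SD, n = 8). Gm12840 had 34.1 CPM in hepatocytes and 598 ± 419 in biliary cells, and Gm48942 had 5.92 and 60.9 ± 60.5. Gm20559 had 2.67 CPM in hepatocytes but 128 ± 29.2 in Kupffer cells and 84.9 ± 17.5 in endothelial cells, and Gm20663 had 5.71 CPM in hepatocytes but 148 ± 61.5 in leukocytes and 110 ± 23.5 in Kupffer cells. In PH hepatocyte nuclei these 5 genes had medians of 62.4 to 269 CPM. In hepatocyte nuclei the summed markers of other cell types had medians in Liver and PH of 44.7 and 127 CPM (10 endothelial), 49.7 and 194 CPM (8 stellate), 23.2 and 64.8 CPM (7 leukocyte), 159 and 188 CPM (7 biliary) and 9.83 and 10.2 CPM (6 Kupffer). None of these markers was at 0 in either type. The ranges of Liver and PH did not overlap for the endothelial, stellate and leukocyte markers and overlapped for the other two, and their part in the levels of these genes was not tested.

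Named long noncoding RNAs from a fixed list gave a comparison. Of 20 tested, 14 were called between PH and Liver (7 higher, 7 lower), 16 between PH and CS and 5 between CS and Liver. Pvt1, a transcript next to Myc, went from 99.5 CPM in Liver to 1227 in PH (log2 3.08) and Mir99ahg, the host of a microRNA cluster, from 406 to 50.5 (log2 -3.55), while the abundant nuclear RNA Malat1 had 30382 CPM in Liver, 42666 in CS and 50430 in PH (log2 0.20 from Liver to PH). The most abundant member, Gm42418, had 6193 to 17625 CPM in Liver (median 12291), 13569 to 43121 in CS (median 24619) and 19833 to 29559 in PH (median 21839). It was called between PH and Liver at a log2 change of 0.48 ± 0.20 (edgeR adjusted p = 0.037), a call that was lost when mouse 1, 3, 5, 6 or 7 was left out. Among 15710 genes over 24 samples, those whose pattern was most like that of Gm42418 were Zc3h7a (r = 0.938), 1600010M07Rik (r = 0.929) and Kcnip1 (r = 0.917), given as a description, since samples share pools and depth.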

How the data were processed

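Single-nucleus RNA libraries of 24 hashtagged samples (8 mice, 3 sample types) were analysed. Per the labels, the authors used bcl2fastq 2.19.0, alevin 1.9.0 and alevin-fry 0.7.0 with GRCm38, and the strand setting is not given in the sources used here. The authors deposited UMI counts without normalization, separately for spliced, unspliced and ambiguous RNA. A table of nuclei gave the sample and cell type of each. It lists singlets, since the authors had taken out doublets seen by hashtag and those inferred with scDblFinder, and no further doublet caller was run. One hashtag named CD2 was read as the CS sample of mouse 2.

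The 3 states were added and summed per sample over hepatocyte nuclei (annotated hepatocytes and the cultured clusters with hepatocyte markers), and genes with at least 10 counts were fitted with edgeR 4.0.16 in R 4.3.3 (TMM, quasi-likelihood, 1 coefficient per sample type, no covariate, Benjamini-Hochberg threshold of 0.05). The fits were tested on simulated data. Exact permutation tests were run in Python 3.11.15 with scipy 1.17.1. Unspliced shares needed at least 20 UMIs per sample, and p-values were adjusted over all genes in place of the members alone, as had been planned for the shares and the relations between mice. Positions are from GENCODE vM21 (GRCm38) and promoters from RefSeq.

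The members and the lists were chosen with earlier results of these data known. The text names the 15 most abundant members, the 6 largest called rises and falls without overlap per comparison, the 6 most central and most portal, the extremes and 5 largest changes of the unspliced share, the 6 with the highest r between Liver and CS, the 5 with the largest excess in another cell type, 2 on each side of the limit and the 3 genes most like the most abundant member. One of the largest falls from CS to PH is not reported here. Samples with the same number were read as coming from the same mouse. The study's methods describe taking all 3 sample types in an isolation, but not the numbering. The deviations of same-mouse samples correlated at r = 0.40 to 0.88 between CS and Liver, -0.14 to 0.11 between PH and CS and -0.08 to 0.13 between PH and Liver. The same number gave the highest r for 7 mice between CS and Liver, but for 1 in each comparison with PH. The numbering of the PH samples could thus not be checked in this way. The alternatives were other scalings (DESeq2 1.42.0 among them), filters, limits, spliced or unspliced UMIs alone, thinning, pool terms, the mouse as a block, and each mouse left out.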

Additional observations from a re-analysis of the deposited data

Results flagged for a closer look

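Over 195 groups of 8 samples, 1 for each named member and sample type, 9 held a sample whose gap to the others was too large for its group by Dixon's test on log2(CPM + 1). Chance gives about 1 in 20 groups, so the total is no more than chance would give. For 9130230L23Rik it was mouse 8, with 94.2 CPM in Liver against 4.89 to 19.4 CPM in the other mice, and again in CS with 39.9 against 5.33 to 11.6 CPM. The level of this gene was 100 CPM in the PH sample numbered 8, within the range of the others. For C730036E19Rik it was mouse 6, with 83.8 CPM in Liver against 42.1 to 55.6 and 98.0 CPM in CS against 38.7 to 58.8. In both genes the Liver and CS samples of that mouse were high together, and for mouse 6 both came from the same pool.

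The other 5 were in 1 sample type each. Mouse 6 had 18.8 CPM of 4833422C13Rik in CS against 24.4 to 30.2 in the others, and 8.82 CPM of Gm15883 in PH against 2.43 to 4.60. Mouse 2 had 218 CPM of 9030624G23Rik in Liver against 118 to 152. Mouse 7 had 64.9 CPM of Gm32063 in CS against 23.1 to 35.2, in the sample with the fewest hepatocyte UMIs (2065229). Mouse 8 had 39.5 CPM of Gm39469 in Liver against 54.4 to 64.7.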

How the results depend on the processing

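Counts of called members moved by over 1.5 times with the limit that chose them, which changes how many members there are, and with a few other settings. With the 356 members of at least 25 CPM or the 92 of at least 100 CPM, 303 and 79 were called between PH and Liver, 316 and 82 between PH and CS, and 182 and 46 between CS and Liver. Between CS and Liver a log2 change of at least 1 left 42, and pools 2 and 5 alone, chosen after seeing the data, left 46. In endothelial nuclei filterByExpr, which tested fewer genes, left 74, thinning left 64 zonated members in Liver, a log2 difference of at least 1 left 8 central and 11 portal members there and as many in CS, and leaving out mice 6 and 7 (also chosen after seeing the data, with adjustment over members) left 17 with recurring mouse differences. The replicate block on the mouse gave 168, 171 and 100 called members in the 3 comparisons and 113 in endothelial nuclei, and the paired test of the unspliced share 72. Leaving out any 1 mouse moved no count of members by 1.5 times. The share of all genes called is not given for these settings, so the counts describe the settings and no trait of the members. Of single named genes, 5 changed direction: in CS over Liver 0610031O16Rik from unspliced UMIs alone (0.14) and, from spliced UMIs alone, 1700030N03Rik (-0.48), 2900026A02Rik (-0.11) and 9030624G23Rik (-0.92), and in PH over Liver Gm26917 in pools 2 and 5 (0.055). Few UMIs of the form used remained for 0610031O16Rik, 1700030N03Rik and 9030624G23Rik, and the cause was not tested. Calls were lost in 42 further checks of single genes, most of them for Gm42418, Gm26917 and AC157910.3, and kept in 1622. The smallest sample, with 2065229 hepatocyte UMIs, was in CS, and the effect of depth on members near the limit was not compared between types.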
